A study of Drosophila melanogaster with 6 samples.

Results

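The proteasome is the protease that degrades proteins tagged with ubiquitin. Its genes were taken from the deposited table by symbol, as every gene whose name begins with Prosalpha, Prosbeta, or Rpn or Rpt followed by a number. This gave 47 of 14026 genes. They fell into 14 genes of the core particle (Prosalpha1 to Prosalpha7 and Prosbeta1 to Prosbeta7), 18 genes of the regulatory particle (Rpn and Rpt) and 15 paralogs, whose symbols add R or T to that of a major gene. The 14 core and 18 regulatory particle genes are called the 32 major genes below.

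RNA sequencing covered 3 groups of 2 libraries, each from midguts of adult flies (Drosophila melanogaster, strain Oregon-R, genotype wild type). Mock day 0 flies received sucrose and were 4 to 5 days old. Pe day 0 flies had the same age and received a treatment that the labels call Pe and do not spell out. Pe day 3 flies were 7 to 8 days old, and no sucrose group of that age was analysed here, so treatment, day and age cannot be told apart in that comparison. The labels do not say whether libraries of a group came from separate dissections, so the spread behind a p-value may be technical only. All groups carry the same genotype, and the design text places them at the start and the end of midgut regeneration.

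In textbook accounts the core particle is a barrel of stacked rings. The outer alpha rings gate the entry, and the inner beta rings hold the catalytic sites on Prosbeta1 (caspase-like), Prosbeta2 (trypsin-like) and Prosbeta5 (chymotrypsin-like). The regulatory particle caps the barrel: in its base the Rpt ATPases unfold the substrate while Rpn1, Rpn10 and Rpn13 receive ubiquitin, and in its lid Rpn11 cuts the ubiquitin chain off. In flies the transcription factor encoded by cnc drives proteasome genes, and many paralogs with R or T in their names replace major subunits in the testis.

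The deposited values were the authors' comparisons of each Pe group with Mock, not values per library, so a group's level below is an estimate from the gene's overall mean and both fold changes, and errors are standard errors (SE) from the authors' model. No column header names a group. The first comparison was taken as Pe day 0 and the second as Pe day 3 because the table's title lists them in that order, and the directions given here depend on this reading. Estimated depth ran from 1.76e+07 to 2.01e+07 reads per library. The enterocyte marker list was present in full, with 6 of 6 genes above 0. Its summed level was 2114 CPM (counts scaled to the library total) in Mock, 5953 at Pe day 0 and 2708 at Pe day 3. Of this sum mesh alone held 885, 3368 and 1309 CPM. In normalized counts the summed list stood at 47190, 83718 and 59269. Myo31DF of this list was called lower at Pe day 0 in the authors' deposited table (-0.44, SE 0.13). Summed enteroendocrine markers stood at 523, 336 and 593 CPM in the same order, and visceral muscle markers at 434, 280 and 441 CPM. AstC alone stood at 216, 52.6 and 189 CPM, so the enteroendocrine sum says little about the rest of its list. Of the 8 enteroendocrine genes, 2 were called higher and 2 lower at Pe day 0 on library totals. By the authors' size factors these counts were 0 and 6. In bulk RNA, fewer cells of a type and less RNA per cell cannot be told apart. Levels also depend on the scale: the authors' size factors place the median gene near 0 change, whereas library totals add 0.67 to every log2 fold change at Pe day 0 and 0.03 at Pe day 3.

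Apart from Prosalpha1, the major genes had similar levels, and the core stood somewhat above the regulatory particle. Levels were compared per kilobase of the longest annotated transcript, as normalized counts. In Mock the core genes apart from Prosalpha1 ran from 1222 per kilobase (Prosbeta3) to 2543 (Prosalpha2), a 2.08-fold range, with a median of 2223. Regulatory particle genes in Mock ran from 844 per kilobase (Rpn2, a scaffold of the base) to 2492 (Rpt6, an ATPase), a 2.95-fold range, with a median of 1416. At Pe day 0 the medians were 2115 and 1292 per kilobase, and at Pe day 3 they were 2132 and 1616. Rpt6 was the highest and Rpn2 the lowest gene of the regulatory particle in all 3 groups, and Prosbeta3 the lowest of the core apart from Prosalpha1. SEs of the single levels overlap for many neighbours in this order, for instance Rpn2 at 844 and Rpn1, the other scaffold, at 951 per kilobase in Mock.

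**Figure D1:**
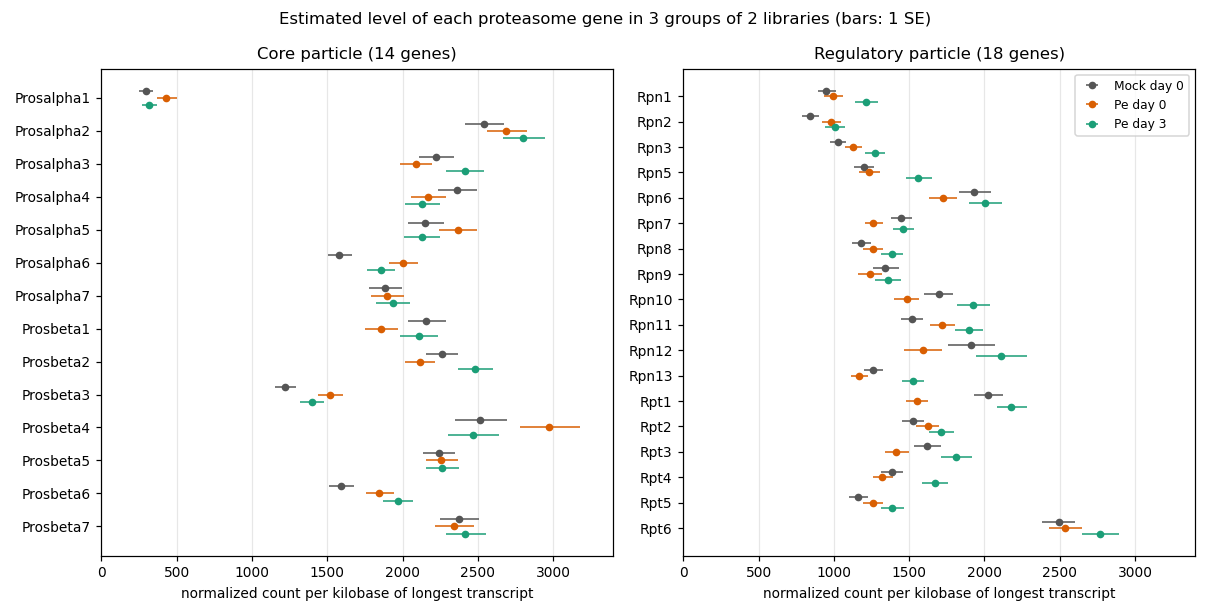
Estimated level of each of the 32 major genes (normalized count per kilobase of longest transcript, horizontal axis) in Mock day 0, Pe day 0 and Pe day 3, with bars of 1 SE of the authors' model. Prosalpha1 stands apart at 293 to 428 per kilobase; the other core genes lie at 1222 or above, and in the regulatory particle all 18 genes have their highest point at Pe day 3 on the authors' scale, though not on library totals.

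Summed over the 32 genes, the estimated level was 70115 normalized counts in Mock, 70048 at Pe day 0 and 77691 at Pe day 3. These sums differ from Mock by -0.00 and 0.15 on the log2 scale. As a share of all counts the same genes made up 0.314% in Mock, 0.498% at Pe day 0 and 0.355% at Pe day 3. The sum at Pe day 0 is thus level with Mock on the authors' scale and above it as a share of the library. No test was made on these sums.

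Prosalpha1, an alpha ring gene, had a neighbour that took most of the reads of the pair. CG30382 (FBgn0050382), which the reference gene table names Prosalpha1R, lies 1734 bases from Prosalpha1 on the same strand of chromosome arm 2R (BDGP6.54). Its symbol in the deposited table does not match the naming rule, so it is not among the 47 genes. Prosalpha1 was estimated at 284, 414 and 303 normalized counts in Mock, Pe day 0 and Pe day 3. CG30382 stood at 6001, 5888 and 5812 normalized counts in the same groups, so Prosalpha1 held 4.52%, 6.57% and 4.96% of the pair. Per kilobase CG30382 reached 6303 in Mock, above the range of the other alpha ring genes (1581 to 2543), and Prosalpha1, at 293, fell below it. Prosalpha1 had the largest fold change of the major genes at Pe day 0 and also their largest error, 0.55 (SE 0.32, adjusted p = 0.152) in the authors' deposited table. The summed pair moved by 0.00 and -0.04 on the log2 scale against Mock. How the counting divided reads between such close copies is not given in the sources used here, and values of Prosalpha1 alone are uncertain for that reason.

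Pe day 0 against Mock asked what differed right after the treatment at the same age. By the authors' deposited table, 2 core genes were higher (adjusted p under 0.05), 1 regulatory particle gene was lower, and the other 29 major genes were not called. Of the 10393 genes tested 46.6% were called, 23% as higher and 23.6% as lower. Among the 4145 genes tested whose mean lay within the range of the major genes (334 to 3650 normalized counts), 59.7% were called, 28.6% as higher and 31.1% as lower. At an unadjusted p under 0.05 the major genes numbered 5 of 32, beside 5377 of all 10393 genes tested and 2663 of the 4145 of like mean. Median log2 fold changes were 0.05 for the core and -0.02 for the regulatory particle, against 0.03 for all genes tested. No major gene moved by more than 0.55 on the log2 scale, and 45.7% of all genes tested, or 57.9% of those of like mean, lay within that distance of 0. That distance was set by Prosalpha1, whose values are uncertain, and the next largest change was that of Rpt1 (-0.38).

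The higher genes were Prosalpha6 in the alpha ring and Prosbeta3, a noncatalytic beta ring gene. Prosalpha6 was estimated at 1692, 2144 and 1985 normalized counts in Mock, Pe day 0 and Pe day 3. The authors' deposited table gives a 1.27-fold rise at Pe day 0 (log2 fold change 0.34, SE 0.10, adjusted p = 0.00218, DESeq2's Wald test). Prosbeta3 was estimated at 1117, 1389 and 1277 normalized counts in the same groups and, by the authors' deposited table, rose 1.24-fold (0.31, SE 0.11, adjusted p = 0.0153). Both stood highest at Pe day 0 and between the other groups at Pe day 3.

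Rpt1, an ATPase of the base, was the gene that fell. Its estimated levels were 3069, 2350 and 3302 normalized counts, so Pe day 0 was the lowest group on the authors' scale. In the authors' deposited table it fell by 0.38 on the log2 scale (SE 0.09, adjusted p = 0.000155), a direction that turns to 0.28 with library totals as the scale. Rpt1 lies entirely within another annotated gene on the same strand, CG17985, over 1515 bases. CG17985 was not called, with a mean of 176 normalized counts and a log2 fold change of 0.17 in the authors' deposited table. The next lowest regulatory particle genes, Rpn12 of the lid (-0.26, SE 0.16) and Rpn7 of the lid (-0.20, SE 0.10), did not pass the test in the authors' deposited table. On the scale of library totals 32 of 32 major genes were called higher at Pe day 0, as were 53.4% of all genes tested; the medians of both sets were then close, at 0.69 for the major genes and 0.69 for all genes. Enterocyte marker genes were higher in 5 of 6 cases and visceral muscle genes lower in 6 of 6 in this comparison on the authors' scale, and in 5 of 6 each on library totals. Their part in these values was not tested.

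**Figure D2:**
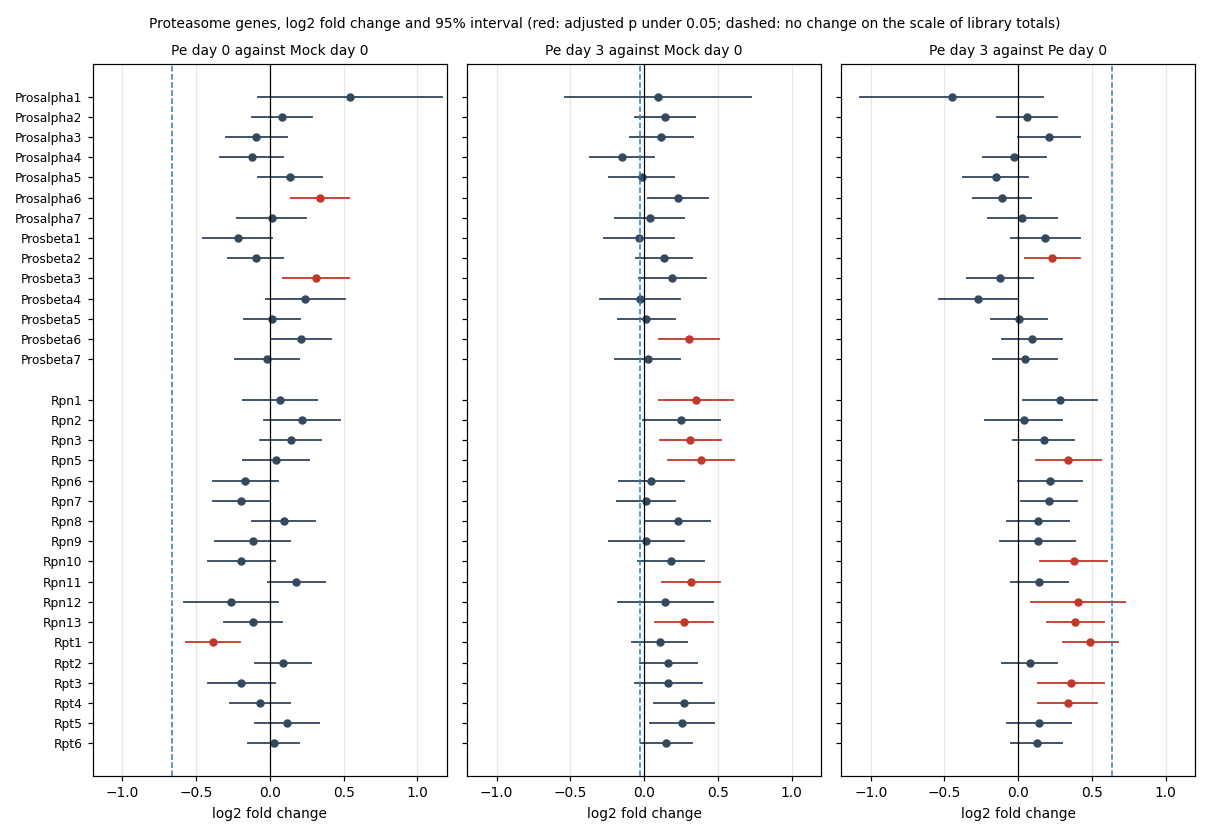
Log2 fold change of each major gene (horizontal axis, with 95% interval) in Pe day 0 against Mock, Pe day 3 against Mock and Pe day 3 against Pe day 0; red marks an adjusted p under 0.05 and the dashed line marks no change on the scale of library totals. All 18 regulatory particle genes lie right of 0 in both panels with Pe day 3, but against Pe day 0 all of them lie left of the dashed line, so that direction turns with library totals.

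Pe day 3 against Mock gave a different picture for the regulatory particle. Judged by the authors' deposited table, 5 of its 18 genes and 1 of the 14 core genes were higher and 0 of the 32 were lower. Over all 8316 genes tested 17.7% were called, 8.75% as higher and 8.92% as lower. Among the genes of like mean the share was 21.8%, with 11.7% higher and 10.1% lower. At an unadjusted p under 0.05 there were 10 of the 32 major genes, beside 2211 of all 8316 genes tested and 1329 of the 4145 of like mean. All 18 regulatory particle genes had a log2 fold change above 0, from 0.01 (Rpn7) to 0.38 (Rpn5), with a median of 0.21. Over all genes tested 4257 of 8316 lay above 0, with a median of 0.01. In the core 10 of 14 genes lay above 0, with a median of 0.07. The largest change among the major genes was 1.30-fold (Rpn5), and 72.8% of all genes tested changed by less.

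The regulatory particle genes that rose came from lid and base. Rpn5, a lid scaffold, was estimated at 2271, 2340 and 2963 normalized counts in Mock, Pe day 0 and Pe day 3. By the authors' deposited table it rose 1.30-fold at Pe day 3 (0.38, SE 0.11, adjusted p = 0.00709). Rpn11, the deubiquitinase of the lid, was estimated at 1834, 2077 and 2291 normalized counts and rose 1.25-fold (0.32, SE 0.10, adjusted p = 0.0114) in the authors' deposited table. Rpn3, another lid scaffold, stood at 1877, 2069 and 2331 normalized counts, with a rise of 0.31 (SE 0.11, adjusted p = 0.0220) in the authors' deposited table. In these 3 lid genes Mock was the lowest group and Pe day 3 the highest on the authors' scale.

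In the base, Rpn1, a scaffold that binds ubiquitin and shuttle proteins, had estimated levels of 2891, 3030 and 3690 normalized counts. The authors' deposited table gives a rise of 1.28-fold (0.35, SE 0.13, adjusted p = 0.0393). Rpn13, a ubiquitin receptor, stood at 1887, 1744 and 2279 normalized counts and was 1.21-fold higher in the authors' deposited table (0.27, SE 0.10, adjusted p = 0.0393). Rpt4, an ATPase, was just outside the threshold in the authors' deposited table (0.27, SE 0.10, adjusted p = 0.0521). The 1 core gene that rose was Prosbeta6, a noncatalytic beta subunit, from 1504 in Mock to 1743 and 1858 normalized counts, with a log2 fold change of 0.31 (SE 0.10, adjusted p = 0.0249) in the authors' deposited table. Rpn9 of the lid (0.02, SE 0.13) and Prosalpha4 (-0.15, SE 0.11), a core gene and the lowest of the 32, were not called in the authors' deposited table.

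Most of these calls sat close to the threshold. With an adjusted p of 0.01 as threshold only Rpn5 passed, beside 5.29% of all genes called higher. Without the authors' filter on low means 3 regulatory particle genes and 1 core gene passed, beside 5.35% of all genes called higher. With library totals 7 major genes were higher and 0 lower, beside 9.72% and 8.04% of all genes. Without the 20 most abundant genes in the totals 10 were higher and 0 lower, beside 11.5% and 6.75% of all genes. Both other scales move every gene up at Pe day 3, so neither could turn a gene that already lay above 0.

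Pe day 3 against Pe day 0 was computed from both deposited comparisons. On the authors' scale it had the highest count of called regulatory particle genes, and also the highest share of all genes called. On the authors' scale, but not on library totals, 7 of 18 regulatory particle genes and 1 of 14 core genes were higher and 0 were lower (adjusted p under 0.05, normal test with Benjamini-Hochberg adjustment). Of all 8316 genes tested 52.7% were called, 27.4% as higher and 25.3% as lower. Of the genes of like mean 57.1% were called, 29.9% as higher and 27.2% as lower. All 18 regulatory particle genes and 8 of 14 core genes lay above 0 on the authors' scale, and 0 of 32 on library totals, beside 4087 of the 8316 genes, with medians of 0.21, 0.02 and -0.01. By call, library totals gave the opposite direction: 0 major genes were then higher and 30 lower, and 63.1% of all genes were lower.

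Rpt1 had the largest difference, 1.40-fold (log2 fold change 0.49, SE 0.09, adjusted p = 8.16e-07), which turns to -0.15 with library totals. It was below Mock at Pe day 0 and near Mock at Pe day 3. Rpn12, a lid subunit, was estimated at 1898, 1582 and 2097 normalized counts in Mock, Pe day 0 and Pe day 3, a difference between the days of 0.41 (SE 0.16, adjusted p = 0.0261). Rpn10, a ubiquitin receptor, stood at 2411, 2109 and 2736 normalized counts and differed by 0.38 (SE 0.11, adjusted p = 0.00277). Both had the same order of groups as Rpt1 on the authors' scale, with Pe day 0 lowest and Pe day 3 highest, and both turned below 0 with library totals. The ATPase genes Rpt3 (0.36, SE 0.11) and Rpt4 (0.34, SE 0.10) and the subunit genes Rpn13 (0.39, SE 0.10) and Rpn5 (0.34, SE 0.11) were the others that were higher, each turning below 0 with library totals. In the core only Prosbeta2 was called (0.23, SE 0.10, adjusted p = 0.0307), while Prosalpha1 (-0.45, SE 0.32) and Prosbeta4 (-0.27, SE 0.14) had the lowest values and were not called. Enteroendocrine and visceral muscle markers were higher at Pe day 3 than at Pe day 0 in 8 of 8 and 6 of 6 genes on the authors' scale, and in 5 of 8 and 6 of 6 on library totals. Their part in the differences of the proteasome genes was not tested.

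Set side by side, core and regulatory particle differed in order between the days. The regulatory particle median was below that of the core by 0.07 on the log2 scale at Pe day 0, and above it by 0.14 at Pe day 3 and by 0.20 between the days. A shift of scale moves both medians alike, so these differences hold on every scale tried. They were not tested, since members of a complex are not replicates. Within the core, the alpha ring had medians of 0.08, 0.09 and -0.02 in the 3 comparisons and the beta ring 0.01, 0.03 and 0.05. The base had -0.02, 0.22 and 0.31, and the lid -0.04, 0.19 and 0.19. On the authors' scale 5 of 10 base genes and 2 of 8 lid genes were higher at Pe day 3 than at Pe day 0. Beside these stood 27.4% of all genes and 29.9% of those of like mean. On library totals 0 of either were higher, beside 9.34% of all genes.

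**Figure D3:**
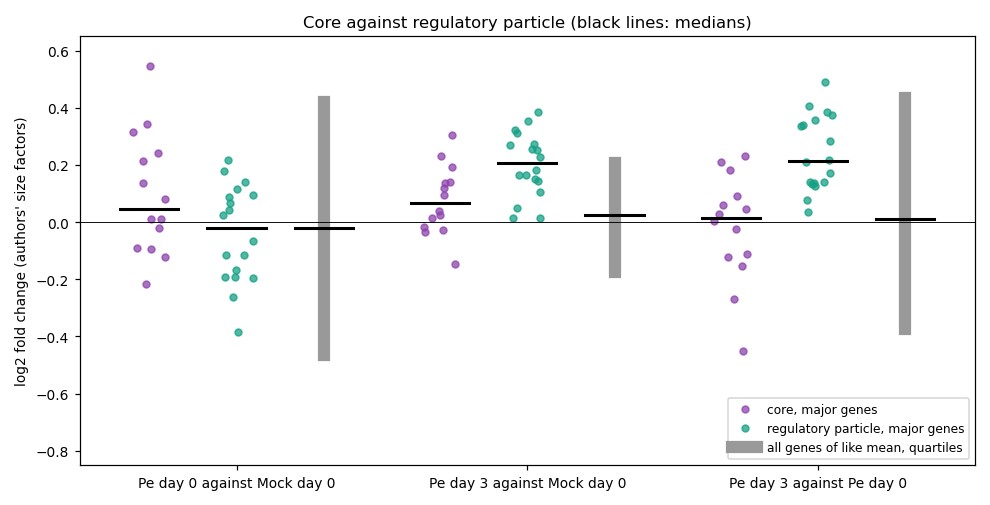
Log2 fold change on the authors' scale (vertical axis) of the 14 core and 18 regulatory particle genes in each comparison, 1 point per gene, black lines at the medians; grey bars give the quartiles of all genes of like mean. At Pe day 3 against Mock the regulatory particle median is 0.21 and that of the core 0.07; between Pe day 3 and Pe day 0 the medians are 0.21 and 0.02, and library totals move both down by the same amount, to below 0.

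The particles also differ in the length of their transcripts, at 815 to 1215 bases in the core and 995 to 3412 in the regulatory particle. The 452 other genes with a mean and length in the core's range had median log2 fold changes of -0.25 at Pe day 0, -0.14 at Pe day 3 and 0.04 between the days. For the 2393 other genes in the regulatory particle's range these medians were 0.00, 0.01 and -0.03. Whether length bears on the difference between the particles was not tested.

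None of the 3 genes for the catalytic sites was called against Mock at either day on the authors' scale. With library totals all 3 were called higher at Pe day 0, as were all 32 major genes and 53.4% of all genes tested. Prosbeta1 was estimated at 1840, 1582 and 1795 normalized counts in Mock, Pe day 0 and Pe day 3, and in the authors' deposited table it had log2 fold changes of -0.22 (SE 0.12) and -0.04 (SE 0.12). Prosbeta2 stood at 2337, 2187 and 2567 normalized counts, with fold changes of -0.10 (SE 0.10) and 0.14 (SE 0.10) in the authors' deposited table. Prosbeta5 stood at 2551, 2572 and 2579 normalized counts, with 0.01 (SE 0.10) and 0.02 (SE 0.10) in the authors' deposited table. On the authors' scale Pe day 0 was the lowest group for Prosbeta1 and Prosbeta2, and the 3 estimates of Prosbeta5 were close together. The 95% interval of Prosbeta5 at Pe day 0 ran from -0.18 to 0.20 on the authors' scale, so changes of that size could not be told from none on that scale.

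Annotated neighbours may bear on what single genes can show. Overlaps were taken from gene start to gene end, introns included, so shared bases need not lie in exons, which was not examined. Of the 32 major genes 16 overlap another gene, 15 of them on the opposite strand. Any use of strand in the counting is not given in the sources used here. Rpt6 shares 1471 bases with CG1801 on the opposite strand, which had a mean of 29.2 normalized counts and a log2 fold change of 4.01 at Pe day 0 in the authors' deposited table, while Rpt6 stood at 0.03. Rpn9 shares 125 bases with CG10365, which fell by 1.18 at Pe day 0 and by 0.56 at Pe day 3 in the authors' deposited table, while Rpn9 was not called. Rpn7 shares 88 bases with CG34376, which fell by 1.21 at Pe day 0 in the authors' deposited table.

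The 15 paralogs taken by symbol had few or no reads in these midguts. CG30382, which the reference gene table names Prosalpha1R, falls outside that rule and had a mean of 5900 normalized counts. According to the authors' deposited table, 10 of the 15 had a mean of 0 over all 6 libraries. A count of 0 over the estimated reads of all 6 libraries allows a level of up to 0.0263 CPM (3 counts, counting error only). The 10 were Prosalpha3T, Prosalpha4T1, Prosalpha4T2, Prosalpha6T, Prosbeta2R1, Prosbeta4R1, Prosbeta4R2, Prosbeta5R1, Rpn12R and Rpn13R. Their major genes were all among the abundant ones, from Rpn12 at a mean of 1859 to Prosalpha4 at 2612 normalized counts in the authors' deposited table. The paralogs have fewer exons, with 1 exon in 6 of 15 against 4 of 32 major genes, and 10 of 15 lie on another chromosome arm than their major gene. Rpn12R and Rpn13R lie within the spans of other genes of the same strand, counted from gene start to gene end with introns. Whether exons are shared was not examined, so whether their 0 depends on a division of reads is not known.

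The other 5 paralogs had few reads. Rpt3R, named after an ATPase of the base, had 32, 64 and 52 estimated reads per group in Mock, Pe day 0 and Pe day 3, and in no group did its normalized count exceed 1.07% of that of Rpt3. Its log2 fold changes were 0.20 (SE 0.54) and 0.61 (SE 0.55) in the authors' deposited table and were not called. Rpt4R had 2, 5 and 1 estimated reads, a ratio of Pe day 0 to Mock of 1.44 with a 95% counting interval of 0.235 to 15.1. Rpt6R had 1, 4 and 0 reads, a ratio of 2.30 (0.227 to 113), and Prosbeta5R2 had 1, 1 and 0 reads, a ratio of 0.574 (0.00732 to 45.1). Group sums this small carry no direction.

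Prosbeta2R2 (FBgn0037296, chromosome arm 3R, 5217751 to 5219528, minus strand, BDGP6.54) was the exception among these 5 paralogs. It had 0 estimated reads in Mock, 33 at Pe day 0 and 1 at Pe day 3, summed over both libraries of a group. With the Mock group set to 3 counts in all, the floor used here, Pe day 0 was at least 6.32-fold higher. In the authors' deposited table it was called at Pe day 0 (adjusted p = 0.0117). Even at Pe day 0 Prosbeta2R2 reached only 0.529% of the level of Prosbeta2. Whether 1 or both libraries of the group held these reads cannot be read from the files. Of the testis marker list 29 of 30 genes were in the table, 12 of them at 0 and 4 with a mean of at least 10 normalized counts (mia, bol, topi and twe). Its summed level was 879, 876 and 822 normalized counts in Mock, Pe day 0 and Pe day 3. In CPM, the unit in which library totals lift every gene at Pe day 0, it was 39.4, 62.3 and 37.6. Most of the sum came from mia (490, 468 and 465) and bol (312, 244 and 228), so it says little about scarcer markers. By the authors' deposited table only topi of the 5 tested was called higher at Pe day 0 (1.07, adjusted p = 0.00069). Estimated reads were 0, 10 and 0 for S-Lap5, 0, 5 and 0 for betaTub85D and 0, 4 and 1 for sa. Others differed, with 1, 1 and 2 for bam and 0, 0 and 1 for Mst87F. The part of the testis list in the reads of the paralogs was not tested.

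**Figure D4:**
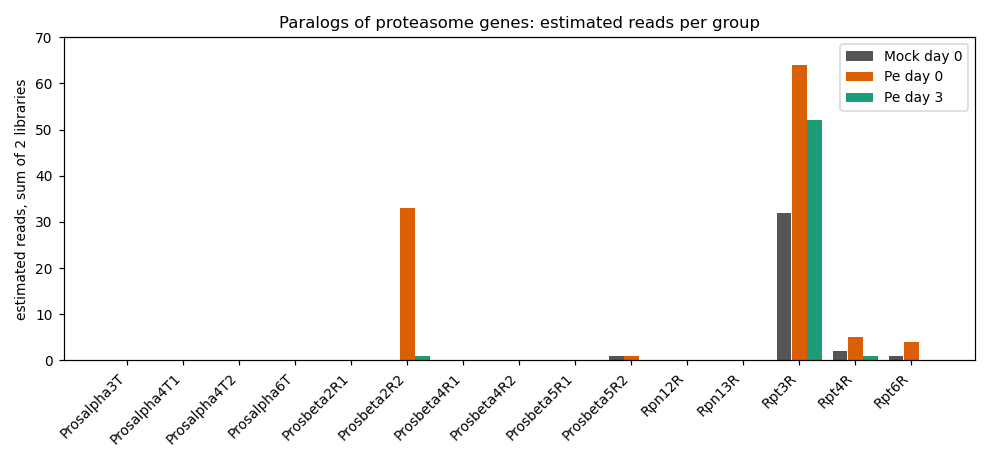
Estimated reads (vertical axis, sum of the 2 libraries of a group) of the 15 paralogs in Mock day 0, Pe day 0 and Pe day 3. Only Rpt3R (32, 64 and 52) and Prosbeta2R2 (0, 33 and 1) pass 5 reads in any group.

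The genes that act around the proteasome were taken from a list and moved in both directions. Of the list's 35 symbols 31 were in the deposited table and 30 were tested. As the authors' deposited table gives them, 9 were higher and 5 lower at Pe day 0, and 6 higher and 4 lower at Pe day 3. Over all genes tested the shares were 23% higher and 23.6% lower at Pe day 0, and 8.75% and 8.92% at Pe day 3. A log2 fold change larger than that of any major gene (0.55, set by the uncertain Prosalpha1) was found at Pe day 0 in 8 of the 30, and in 54.3% of all genes tested. Between Pe day 0 and Pe day 3, 10 were higher and 8 lower at Pe day 3 on the authors' scale, and 3 higher and 21 lower on library totals, beside 27.4% and 25.3% of all genes on the authors' scale and 9.34% and 63.1% on library totals. Against Mock, library totals gave 26 higher and 4 lower at Pe day 0 (53.4% and 8.97% of all genes), and 6 higher and 3 lower at Pe day 3 (9.72% and 8.04%). Whether the list differs from the major genes was not tested.

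Among regulators, the transcription factor gene cnc was not called at either day (-0.04 with SE 0.12, and -0.21 with SE 0.12) in the authors' deposited table. Its dimer partner maf-S was estimated at 1612, 569 and 1289 normalized counts in Mock, Pe day 0 and Pe day 3. By the authors' deposited table it was 2.83-fold lower at Pe day 0 (SE 0.11 on the log2 scale, adjusted p = 1.51e-37), and on library totals it fell by 0.84. Keap1, the inhibitor of the cnc product, stood at 1053, 424 and 1036 normalized counts and fell by 1.31 (SE 0.20, adjusted p = 2.49e-10) by the authors' deposited table and by 0.65 on library totals. Both were lowest at Pe day 0 and higher again at Pe day 3, by 1.18 (SE 0.12) for maf-S and 1.29 (SE 0.20) for Keap1. The protease gene rngo, whose human counterparts process the cnc counterpart, was higher at both days (0.30 with SE 0.12, and 0.36 with SE 0.12) in the authors' deposited table. Neither Pngl, a deglycosylase gene of the same route, nor TER94, the segregase gene, was called against Mock (Pngl -0.15 and -0.02, TER94 -0.09 and 0.19) in the authors' deposited table. Both were called higher at Pe day 0 on library totals, Pngl by 0.52 and TER94 by 0.58.

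REG encodes an alternative cap that opens the core without ubiquitin. It was estimated at 2608, 2237 and 1659 normalized counts in Mock, Pe day 0 and Pe day 3. It fell by 0.65 at Pe day 3 (SE 0.11, adjusted p = 6.76e-08) by the authors' deposited table and by 0.62 on library totals. In CPM its levels were 117, 159 and 75.8, so Pe day 3 was its lowest group in both units, while its highest group was Mock in normalized counts and Pe day 0 in CPM. Pomp, the assembly chaperone of the core (-0.03 and 0.02), and PI31, a modulator (0.17 and 0.26), were not called in the authors' deposited table.

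Genes for ubiquitin itself moved in both directions. RpS27A and RpL40, which encode ubiquitin fused to a ribosomal protein, fell by 1.39 (SE 0.12) and 1.07 (SE 0.10) at Pe day 0 by the authors' deposited table. At Pe day 3 both fell by less (0.48 and 0.36, authors' deposited table), and on library totals they fell by 0.72 and 0.40 at Pe day 0. The polyubiquitin gene Ubi-p63E rose by 0.92 (SE 0.14, adjusted p = 4.02e-10) and the ubiquitin-activating enzyme gene Uba1 by 0.89 (SE 0.12, adjusted p = 2.53e-13) at Pe day 0 in the authors' deposited table. The more abundant polyubiquitin gene Ubi-p5E fell by 0.25 (SE 0.09, adjusted p = 0.0206) in the authors' deposited table, a direction that turns to 0.42 with library totals. Rad23, a shuttle that brings ubiquitinated proteins to the proteasome, was estimated at 1928, 3398 and 2494 normalized counts. It was higher at both days, by 0.82 (SE 0.10) and 0.37 (SE 0.10) in the authors' deposited table. Among the 8 tested genes of shuttles and TER94 cofactors 4 were higher and 0 lower at Pe day 0, beside 23% and 23.6% of all genes, and with library totals 8 were higher and 0 lower, beside 53.4% and 8.97%. Ubi-p63E, Ubi-p5E and Uba1 were named after their values were seen.

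**Figure D5:**
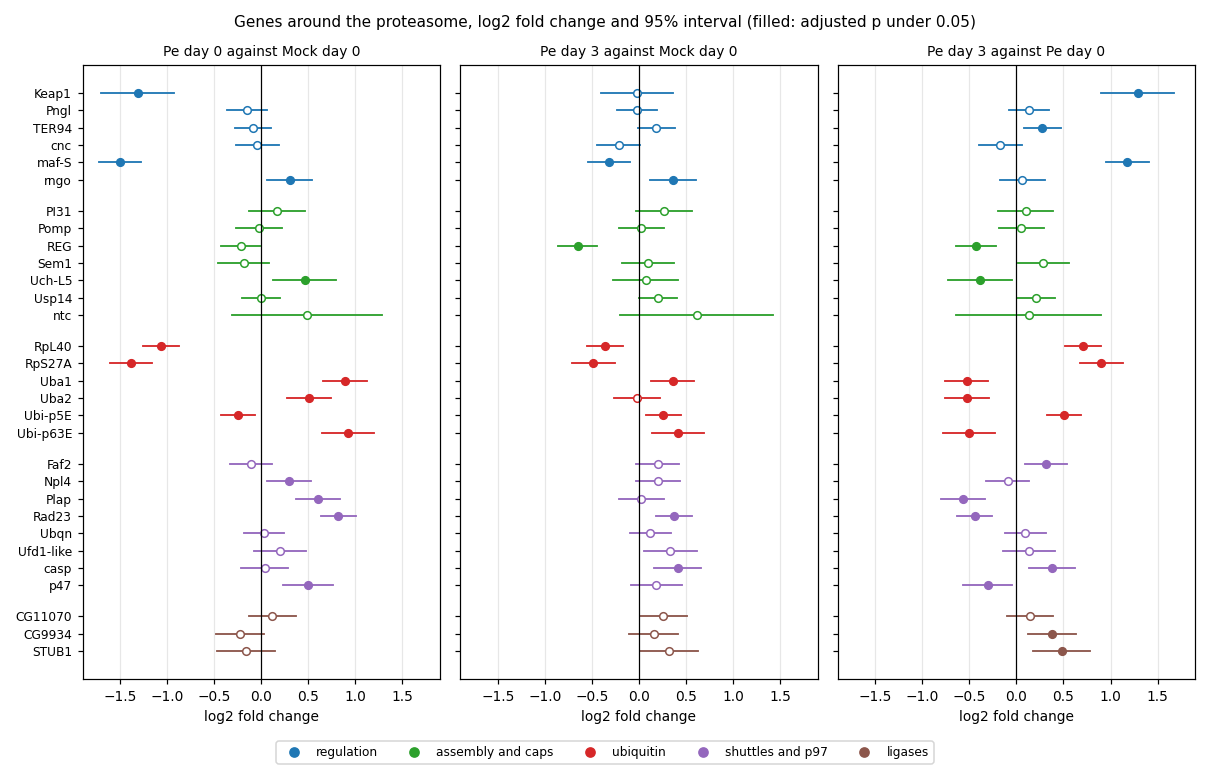
Log2 fold change (horizontal axis, 95% interval, authors' scale) of the 30 tested genes around the proteasome in the 3 comparisons, coloured by role, filled where the adjusted p is under 0.05. At Pe day 0 maf-S (2.83-fold lower), Keap1 (-1.31), RpS27A (-1.39) and RpL40 (-1.07) lie farthest left and stay below 0 with library totals; Ubi-p63E (0.92) and Uba1 (0.89) lie farthest right.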

How the data were processed

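Tools named in the submitters' processing notes are DESeq2 1.22.0, Salmon 0.11.3, fastp 0.19.5 and CASAVA 1.8, and the build is BDGP6. Of their options, the annotation and the use of strand in counting nothing is stated in the sources used here. The deposited table holds, per the file headers, a mean signal per gene (normalized counts over all libraries) and, for 2 comparisons, a log2 fold change, its SE, a score (the Wald statistic), and p-values with adjusted p-values. It holds no counts per library, so the planned edgeR test was replaced by the authors' deposited DESeq2 results, called at an adjusted p of 0.05. Genes without a deposited adjusted p were taken as not tested.

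Size factors came from genes with 1 read in all, group means from the mean and both fold changes, with a group under 0.5 estimated reads set to 0. Pe day 3 against Pe day 0 is the difference of both fold changes, with the variance shared through Mock removed, a 2-sided normal p and Benjamini-Hochberg adjustment over 8316 genes. Lengths and coordinates are from BDGP6.54 (Ensembl 115), where all 47 IDs matched. The scripts used Python 3.11.15, pandas 2.3.3 and SciPy 1.17.1 and were tested on simulated data. Intervals are at 95% and, like the floor of 3 counts, cover counting or model error only. Named members were, in each particle and comparison, the 2 with the largest and the 2 with the smallest fold change, the catalytic genes and the paralogs above 0; Prosbeta3, Rpn3, Rpn10, Rpn13, Rpt3 and Rpt4 were added after their values were seen. Around the proteasome they were the regulators, REG, Pomp and PI31, and in each comparison the 2 others with the smallest p. Neighbouring and nearly called genes were likewise chosen after seeing values. The members and lists were chosen with earlier results of these data known. Samples were grouped by title. Alternatives were library totals, with or without the 20 most abundant genes, other filters on low means, an adjusted p of 0.01 and another SE or gene set between the days; the scales for the genes around the proteasome and the marker lists were added after seeing the data.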

Additional observations from a re-analysis of the deposited data

Results flagged for a closer look

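For 8 major genes the change at Pe day 0 and the change at Pe day 3, each against Mock, differed by the test of the difference itself (normal test, adjusted over 8316 genes). By the same test 52.7% of all genes tested and 57.1% of those of like mean differed. The difference was 0.49 on the log2 scale for Rpt1, 0.41 for Rpn12, 0.39 for Rpn13, 0.38 for Rpn10, 0.36 for Rpt3, 0.34 for Rpn5, 0.34 for Rpt4 and 0.23 for Prosbeta2. Both changes share the Mock libraries, and on library totals each of the 8 differences lies below 0.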

How the results depend on the processing

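No paired analysis was possible because the deposited table holds no values per library, and leaving out each replicate was not run for the same reason. With library totals as the scale, Pe day 0 against Mock had 14 core and 18 regulatory particle genes higher and 0 regulatory particle genes lower. Without the 20 most abundant genes in the totals these were 14, 16 and 0. Of all genes 53.4% and 45.4% were higher on these 2 scales, and 8.97% and 11.9% lower. At Pe day 3 against Mock the totals without the 20 genes gave 2 core and 8 regulatory particle genes higher, beside 11.5% of all genes. Between Pe day 3 and Pe day 0, library totals gave 0 core and 0 regulatory particle genes higher and 14 and 16 lower. The totals without the 20 genes gave 0 and 0 higher and 11 and 9 lower. Of all genes 9.34% and 14.1% were then higher on these 2 scales, and 63.1% and 51.2% lower. These scales add the same shift to every gene, which is their whole effect on a fold change. At an adjusted p of 0.01, 1 core gene was higher at Pe day 0, 0 core and 1 regulatory particle gene at Pe day 3, and 0 core genes between the days. Of all genes 18.5%, 5.29% and 23.0% were higher at that threshold in the same order. Without the filter on low means, 3 regulatory particle genes were higher at Pe day 3, beside 5.35% of the 12008 genes then adjusted over. With the SE taken as if both comparisons were independent, 0 core and 2 regulatory particle genes were higher between the days, beside 19.9% of all genes. Requiring 5 CPM kept every count within 1.5 times of its value as reported, as did adjusting over the genes of the day 0 comparison.

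At Pe day 0 against Mock these genes turned above 0 with library totals (first value) and without the 20 genes (second value): Prosalpha3 (0.58 and 0.40), Prosalpha4 (0.54 and 0.37), Prosbeta1 (0.45 and 0.28), Prosbeta2 (0.57 and 0.40), Rpn7 (0.47 and 0.30), Rpn9 (0.55 and 0.38), Rpn10 (0.47 and 0.30), Rpn12 (0.40 and 0.23, the latter not called), Rpn13 (0.55 and 0.38), Rpt1 (0.28 and 0.11), Rpt3 (0.47 and 0.30) and Rpt4 (0.60 and 0.43). Between Pe day 3 and Pe day 0 these turned below 0 with library totals and, apart from Rpt1, without the 20 genes: Prosalpha3 (-0.43 and -0.21), Prosbeta1 (-0.46 and -0.24), Prosbeta2 (-0.41 and -0.19), Prosbeta5 (-0.63 and -0.42), Prosbeta6 (-0.55 and -0.33), Rpn1 (-0.35 and -0.14), Rpn2 (-0.60 and -0.39), Rpn3 (-0.47 and -0.25), Rpn5 (-0.30 and -0.083), Rpn7 (-0.43 and -0.21), Rpn9 (-0.51 and -0.29), Rpn10 (-0.26 and -0.048), Rpn11 (-0.50 and -0.28), Rpn12 (-0.23 and -0.017), Rpn13 (-0.25 and -0.037), Rpt1 (-0.15, but 0.067 without the 20 genes), Rpt2 (-0.56 and -0.35), Rpt3 (-0.28 and -0.066) and Rpt4 (-0.30 and -0.088). At Pe day 3 against Mock no called gene among those named changed sign on either scale. With a median SE of 0.11 at Pe day 0, the median 95% interval reached 0.216 to either side, so changes smaller than that were mostly not detectable at this depth and n.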
